A study of Mus musculus with 10 samples.

Results

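The genes described are 32 mouse genes of protein folding and stress signaling in the endoplasmic reticulum, taken by symbol from a table of 27919 symbols. They comprise 16 chaperones and folding enzymes, 6 genes of protein degradation, 3 stress sensors, 3 transcription factors and 4 genes that the transcription factor Atf4 switches on. RNA sequencing of polyadenylated RNA covered tumors of B16F10, a mouse melanoma cell line, made to overexpress Ly86 (4 tumors, the Ly86 tumors) or carrying the vector alone (3 tumors, the Vector tumors). The Ly86 product is MD-1, which is secreted and binds the receptor RP105 of immune cells. Mice of both groups had been given antibodies against PD-1 and CTLA4 in 4 rounds, so no untreated tumor enters any comparison. The strain, sex and age of the mice, the promoter that drives Ly86 and whether each line was 1 clone are not given in the sources used here. Both pieces of Ly86 tumor 1, of Vector tumor 1 and of Vector tumor 2 were sequenced, and pieces of 1 tumor were averaged before any test. Values are log2(TPM + 1), where TPM is the share of transcripts in a library, corrected for transcript length and scaled to a common total, and every difference is Ly86 minus Vector on that scale. The depth of each library is unknown, because TPM keeps no record of it.

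Proteins that enter the endoplasmic reticulum are folded by chaperones such as Hspa5 (BiP) and by enzymes that form disulfide bonds, and those that fail to fold are passed back to the cytosol for degradation. When unfolded proteins accumulate, the membrane sensors Ern1 (Ire1), Eif2ak3 (Perk) and Atf6 start the unfolded protein response. Ern1 splices the mRNA of Xbp1, cleaved Atf6 enters the nucleus, and both routes switch on chaperone and degradation genes, while Eif2ak3 slows translation and favors that of Atf4, which switches on genes of amino acid supply and Ddit3 (CHOP). Atf4 also acts when amino acids run short, so its targets can move apart from the chaperones. Splicing of Xbp1, cleavage of Atf6 and phosphorylation are not read by a table of gene values.

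In the Ly86 tumors, 26 of the 31 genes that could be tested averaged lower than in the Vector tumors and 5 averaged higher. No difference passed the test across all genes. The median difference of the 31 genes was -0.19, against -0.04 for the 14556 genes tested, of which 56.2% averaged lower. The mean difference was -0.18 over the 31 genes and 0.04 over all genes, so the mean and the median of all genes differed in sign. Of the 31 genes, 0 passed at an adjusted p under 0.05 in limma, and over all genes the share was 0%. With limma's array weights, which weighted Vector tumor 3 at 22.8 and the others all under 1, 8 passed, all of them lower, beside 1832 of the 14556 genes in either direction. At an unadjusted p under 0.05, 4 of the 31 were lower (Manf, Dnajb11, Hyou1 and Herpud1), against 4.97% of all genes, and 0 were higher, against 5.78% of all genes. In 3 of the 31 genes (Manf, Dnajb11 and Herpud1) every Ly86 tumor lay below every Vector tumor, which held for 5.75% of all genes. These 3 are among the 4 with the low p. None of the 31 had every Ly86 tumor above every Vector tumor, which held for 4.71% of all genes. The count of 4 became 0 when either Vector tumor 1 or Vector tumor 3 was left out, 1 when Ly86 tumor 4 was, 12 when Vector tumor 2 was, and 7 when only the first piece of Vector tumor 2 was dropped. The count over all genes moved too. Of 14556 genes 724 were lower at that p, against 386 and 250 when Vector tumor 1 or 3 was left out, 488 when Ly86 tumor 4 was, 1343 when Vector tumor 2 was, and 1379 when its first piece was dropped. Derl3, a degradation gene related to Derl1, averaged 0.256 TPM, and stood under the minimum of 1 TPM needed for a test.

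**Figure D1:**
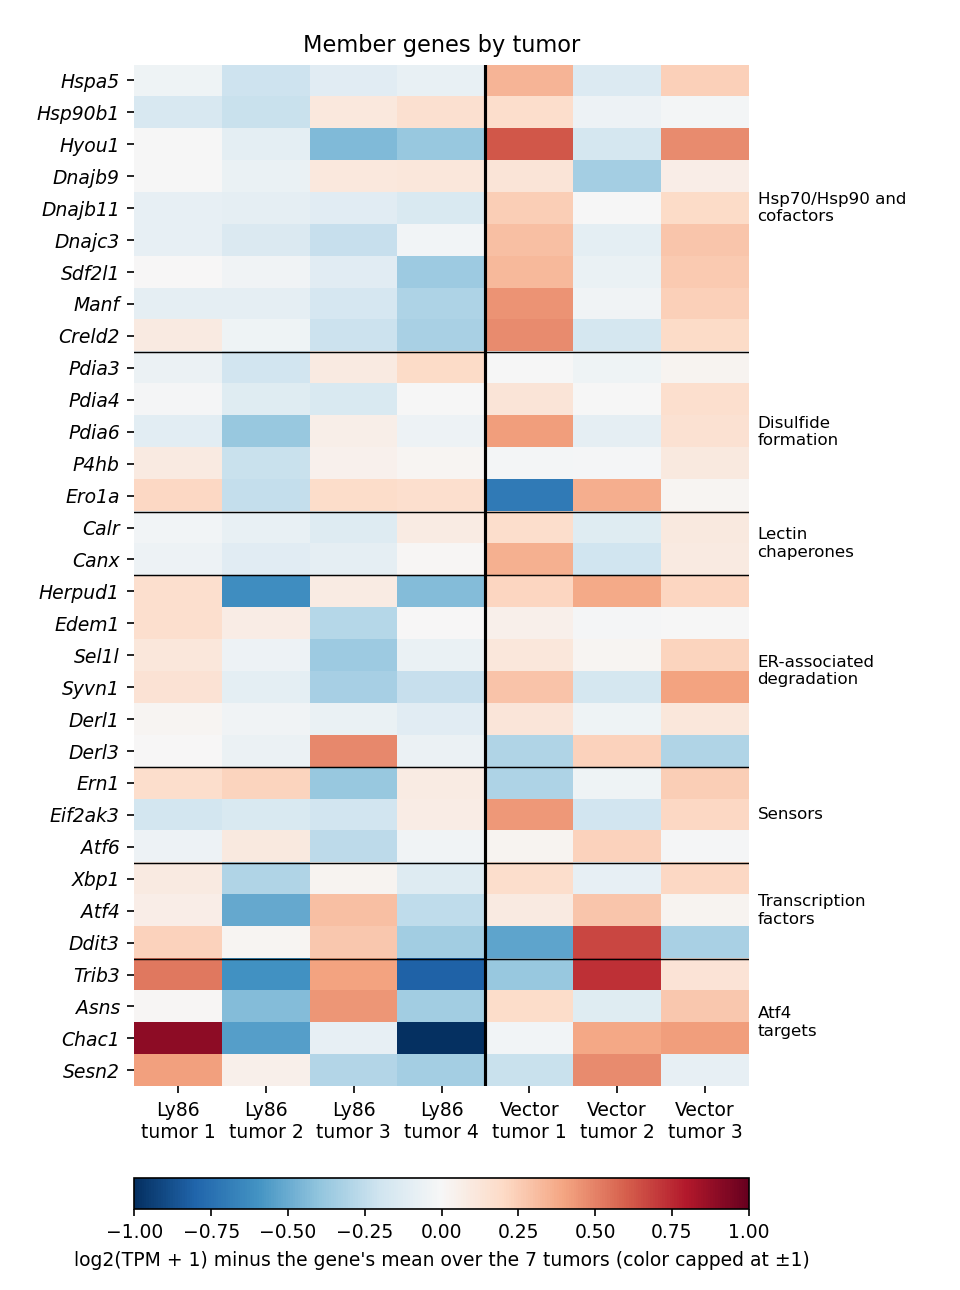
Each row is 1 of the 32 genes and each column 1 tumor, with Ly86 tumors left and Vector tumors right of the thick line; color gives log2(TPM + 1) minus the gene's mean over the 7 tumors, capped at 1 in either direction. Vector tumors 1 and 3 are red over most chaperone rows, Vector tumor 2 is not, and the rows of Atf4 targets vary most, with Chac1 highest in Ly86 tumor 1 and lowest in Ly86 tumor 4.

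Ly86 mRNA held 49.1 to 81.9 TPM in the 5 libraries of Ly86 tumors, against 6.24, 9.88, 80.9, 7.85 and 30.3 TPM in the 5 libraries of Vector tumors, the third of these being the first piece of Vector tumor 2. Its log2 difference was 1.69 (SE 0.40, limma adjusted p = 0.437). In the same order, 12 macrophage markers summed to 378, 615, 5246, 375 and 1631 TPM in the Vector libraries. In the pieces of Ly86 tumor 1 they summed to 1873 and 3737 TPM, where Ly86 held 49.1 and 81.9 TPM. How much of the Ly86 mRNA came from the introduced gene and how much from other cells was not tested. The melanoma label matched the RNA, since none of 9 pigment cell markers was at 0 in any library, and their mean was 10.07 ± 0.25 in the Ly86 tumors (SD, n = 4) and 10.08 ± 0.20 in the Vector tumors (SD, n = 3). All 12 macrophage markers, all 10 T cell markers and all 9 fibroblast markers averaged higher in the Ly86 tumors. At an unadjusted limma p under 0.05 were 9, 4 and 7 of them, against 5.78% of all genes higher at that p. All 10 proliferation genes averaged lower, against 56.2% of all genes, and 7 of them at that p, against 4.97%. In these 4 lists 0 genes passed at a limma adjusted p under 0.05. In bulk tumor RNA, fewer cells of a type and less RNA per cell cannot be told apart.

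The promoters of these genes hold short elements read by the factors of the response, and the sites printed here are those by which the genes are grouped in a later comparison. Promoter windows from 250 bases before to 50 bases after the start were available from RefSeq (build GRCm38.p6) for 28 of the 32 genes. The endoplasmic reticulum stress element, bound by cleaved Atf6 together with the CCAAT-binding factor NF-Y, was searched on both strands as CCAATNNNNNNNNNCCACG. It was found in 9 of the 28 windows, against 39 of the 32851 windows of all genes (0.119%). The sites are written 5′ to 3′ on the strand on which the element reads as spelled, with 15 bases on either side and the element in capitals.
Hspa5, chr2:34772010-34772058, plus strand: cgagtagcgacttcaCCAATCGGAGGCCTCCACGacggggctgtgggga
Hsp90b1, distal site, chr10:86705623-86705671, minus strand: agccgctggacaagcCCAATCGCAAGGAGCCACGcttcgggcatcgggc
Hsp90b1, proximal site, chr10:86705518-86705566, plus strand: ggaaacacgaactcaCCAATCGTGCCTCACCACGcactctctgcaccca
Dnajc3, chr14:118937812-118937860, plus strand: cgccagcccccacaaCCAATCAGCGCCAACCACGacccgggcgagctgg
Creld2, chr15:88819505-88819553, minus strand: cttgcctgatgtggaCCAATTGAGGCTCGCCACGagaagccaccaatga
Pdia6, chr12:17266476-17266524, plus strand: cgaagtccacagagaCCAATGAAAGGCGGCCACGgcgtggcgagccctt
Calr, chr8:84847060-84847108, plus strand: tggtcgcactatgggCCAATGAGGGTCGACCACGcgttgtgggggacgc
Canx, chr11:50325785-50325833, minus strand: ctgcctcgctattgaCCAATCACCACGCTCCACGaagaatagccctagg
Syvn1, chr19:6046517-6046565, plus strand: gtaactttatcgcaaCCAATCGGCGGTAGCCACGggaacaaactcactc
In Hspa5 the element lay 65 to 47 bases before the start and in Syvn1 44 to 26 bases before it, whereas the distal site of Hsp90b1 lay 212 to 194 bases before the start. Derl3 was the ninth gene with this element.

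The 250 bases before the start of Hspa5, the central chaperone of the response, are shown whole, with that element in capitals.
Hspa5, chr2:34771840-34772089, plus strand: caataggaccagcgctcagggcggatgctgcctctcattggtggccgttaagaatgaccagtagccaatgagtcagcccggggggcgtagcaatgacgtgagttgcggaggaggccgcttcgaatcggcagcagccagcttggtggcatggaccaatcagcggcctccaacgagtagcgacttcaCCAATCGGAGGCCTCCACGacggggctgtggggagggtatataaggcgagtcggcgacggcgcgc
A second form of the element, ERSE-II (ATTGG, then any 1 base, then CCACG), was found in Herpud1 and Dnajb11, or 2 of the 28 windows, against 0.0365% of all windows. The element TGATGNAA, a core of the C/EBP-ATF response element to which Atf4 binds, was found in Asns, Chac1, Trib3 and Herpud1, or 4 of the 28 windows, against 3.97% of all windows. Asns carried it 23 to 16 bases before the start and Chac1 193 to 186 bases before it.
Asns, chr6:7693210-7693247, minus strand: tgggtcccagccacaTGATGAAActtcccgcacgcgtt
Chac1, chr2:119351034-119351071, minus strand: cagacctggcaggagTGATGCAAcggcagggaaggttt
Herpud1 was the only one of the 28 windows with both kinds of element. Its 250 bases before the start, on the plus strand, are shown with the Atf4-type element first, on the opposite strand, and ERSE-II second, both in capitals.
Herpud1, chr8:94386179-94386428, plus strand: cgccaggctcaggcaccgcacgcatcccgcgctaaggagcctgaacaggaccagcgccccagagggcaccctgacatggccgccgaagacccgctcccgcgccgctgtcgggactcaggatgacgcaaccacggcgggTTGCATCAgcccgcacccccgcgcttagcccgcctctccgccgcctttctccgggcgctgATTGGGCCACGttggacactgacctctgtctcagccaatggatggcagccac
The element TGACGTGG, bound by Xbp1 and Atf6, was in 0 of the 28 windows and in 0.676% of all windows. The searched elements do not overlap one another in these genes, and the match of letters does not show that a factor was bound.

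The Hsp70 and Hsp90 chaperones and their cofactors averaged lower in the Ly86 tumors in 8 of 9 genes, against 56.2% of all genes. Their median difference was -0.28, and 3 of the 9 were lower at an unadjusted limma p under 0.05, against 4.97% of all genes. Hspa5, the Hsp70 of the endoplasmic reticulum, had a mean of 645 TPM over the tumors, second among the 32 genes. It stood at 9.28, 9.11, 9.21 and 9.25 log2(TPM + 1) in Ly86 tumors 1 to 4, against 9.66, 9.18 and 9.55 in Vector tumors 1 to 3. Vector tumors 1 and 3 lay above every Ly86 tumor, and Vector tumor 2 lay within the Ly86 range. The difference was -0.26 (SE 0.13), with a limma adjusted p of 0.503. Manf, a small protein that binds Hspa5 and is also secreted, stood at 8.62, 8.62, 8.54 and 8.40 in the Ly86 tumors and at 9.16, 8.68 and 8.95 in the Vector tumors. The groups did not overlap by tumor, although Vector tumor 2 lay close to Ly86 tumors 1 and 2. Single libraries did overlap, with 8.71 in the first piece of Ly86 tumor 1 and 8.63 in the first piece of Vector tumor 2. The difference of -0.38 (SE 0.13) had a limma adjusted p of 0.437. Dnajb11 (ERdj3), which hands unfolded proteins to Hspa5, stood at 6.72, 6.72, 6.69 and 6.65 in the Ly86 tumors and at 7.05, 6.80 and 6.99 in the Vector tumors. With pieces averaged, it was the most even gene of the group among Ly86 tumors, with an SD of 0.034. The pieces of Ly86 tumor 1 stood at 6.83 and 6.61, and the second piece of Vector tumor 2 at 6.72, so single libraries overlapped. The difference of Dnajb11 was -0.25 (SE 0.092, limma adjusted p = 0.441).

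Hyou1 (Grp170), which recharges Hspa5 with ATP, had the most negative difference of all 31 genes, at -0.54 (SE 0.20, limma adjusted p = 0.448). Its values were 6.33, 6.24, 5.90 and 5.96 in the Ly86 tumors and 6.96, 6.16 and 6.81 in the Vector tumors. Vector tumor 2 lay below Ly86 tumors 1 and 2, so the groups overlapped. Dnajc3, a cofactor of Hspa5 that also restrains Eif2ak3, differed by -0.28 (SE 0.12), Sdf2l1, a partner of Dnajb11, by -0.30 (SE 0.14), and Creld2, a stress-induced protein with disulfide-forming motifs, by -0.29 (SE 0.17). Hsp90b1 (Grp94), the Hsp90 of the endoplasmic reticulum, averaged 9.27 ± 0.19 in the Ly86 tumors and 9.33 ± 0.12 in the Vector tumors (SD, n = 4 and 3), and its range over the tumors was 0.40. Dnajb9 (ERdj4), which holds Ern1 inactive, was the single gene of the group that averaged higher, by 0.09 (SE 0.14), and it differed by -0.06 without Vector tumor 2. The 95% limma interval of Hsp90b1 ran from -0.35 to 0.23 and that of Dnajb9 from -0.25 to 0.42, whereas that of Hspa5 ran from -0.55 to 0.03.

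Among the disulfide-forming enzymes, 3 of 5 averaged lower and the median difference was -0.04, equal to that of all genes at 2 decimals. Pdia6, a protein disulfide isomerase that also attenuates Ern1, stood at 8.53, 8.25, 8.69 and 8.58 in the Ly86 tumors and at 9.05, 8.55 and 8.79 in the Vector tumors. Vector tumors 1 and 3 lay above all Ly86 tumors and Vector tumor 2 within them, and the difference was -0.28 (SE 0.15, limma adjusted p = 0.530). Pdia4, another isomerase, stood at 8.38, 8.27, 8.24 and 8.39 in the Ly86 tumors and at 8.52, 8.39 and 8.57 in the Vector tumors, a difference of -0.17 (SE 0.089, limma adjusted p = 0.525). Its groups met at 8.39. P4hb, the isomerase that is also a subunit of collagen prolyl hydroxylase, differed by -0.04 (SE 0.10), and Pdia3, which acts on glycoproteins, by 0.01 (SE 0.11), which became -0.01 under quantile normalization.

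Ero1a, the oxidase that recharges the isomerases and is also induced by low oxygen, had its lowest level in Vector tumor 1. Its values were 8.08, 7.63, 8.05 and 8.03 in the Ly86 tumors and 7.16, 8.23 and 7.89 in the Vector tumors. Vector tumor 1, the highest tumor for Hspa5, Manf and Hyou1, was the lowest for Ero1a, and its pieces held 177 and 114 TPM against 197 to 344 TPM in the other 8 libraries. The difference was 0.19 (SE 0.24, limma adjusted p = 0.819), and it was -0.11 without Vector tumor 1.

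The lectin chaperones Calr and Canx hold freshly made glycoproteins until they fold. Calr had the highest level of the 32 genes, with a mean of 863 TPM. It stood at 9.72, 9.67, 9.62 and 9.83 in the Ly86 tumors and at 9.92, 9.63 and 9.85 in the Vector tumors, a difference of -0.09 (SE 0.11, limma adjusted p = 0.804). Canx stood at 8.69, 8.63, 8.65 and 8.75 in the Ly86 tumors and at 9.09, 8.54 and 8.83 in the Vector tumors, a difference of -0.14 (SE 0.13, limma adjusted p = 0.722). In both genes Vector tumors 1 and 3 lay above every Ly86 tumor, and in Canx Vector tumor 2 lay below every Ly86 tumor.

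The degradation genes averaged lower in the Ly86 tumors in 5 of 5 tested members, against 56.2% of all genes. However, Edem1 turned to 0.01 under median-of-ratios scaling and to 0.04 under quantile normalization. Herpud1, a membrane protein of the complex that moves failed proteins to the cytosol, stood at 6.22, 5.43, 6.13 and 5.61 in the Ly86 tumors and at 6.27, 6.43 and 6.27 in the Vector tumors. The groups did not overlap, but the gap between Ly86 tumor 1 and the Vector tumors was small beside that between Ly86 tumors 1 and 2, and single libraries did overlap. The first piece of Ly86 tumor 1 held 82.6 TPM, against 69.0 to 102 TPM in the 5 Vector libraries. The difference was -0.47 (SE 0.20, limma adjusted p = 0.455). Syvn1 (Hrd1), the ubiquitin ligase of the complex, stood at 5.22, 4.98, 4.74 and 4.84 in the Ly86 tumors and at 5.36, 4.90 and 5.48 in the Vector tumors, a difference of -0.30 (SE 0.17, limma adjusted p = 0.566). Its adaptor Sel1l differed by -0.21 (SE 0.13), the channel component Derl1 by -0.11 (SE 0.088) and the mannosidase-like Edem1 by -0.02 (SE 0.12). Derl3 was listed at 0 in 4 of the 10 libraries and at no more than 0.72 TPM in the others.

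**Figure D2:**
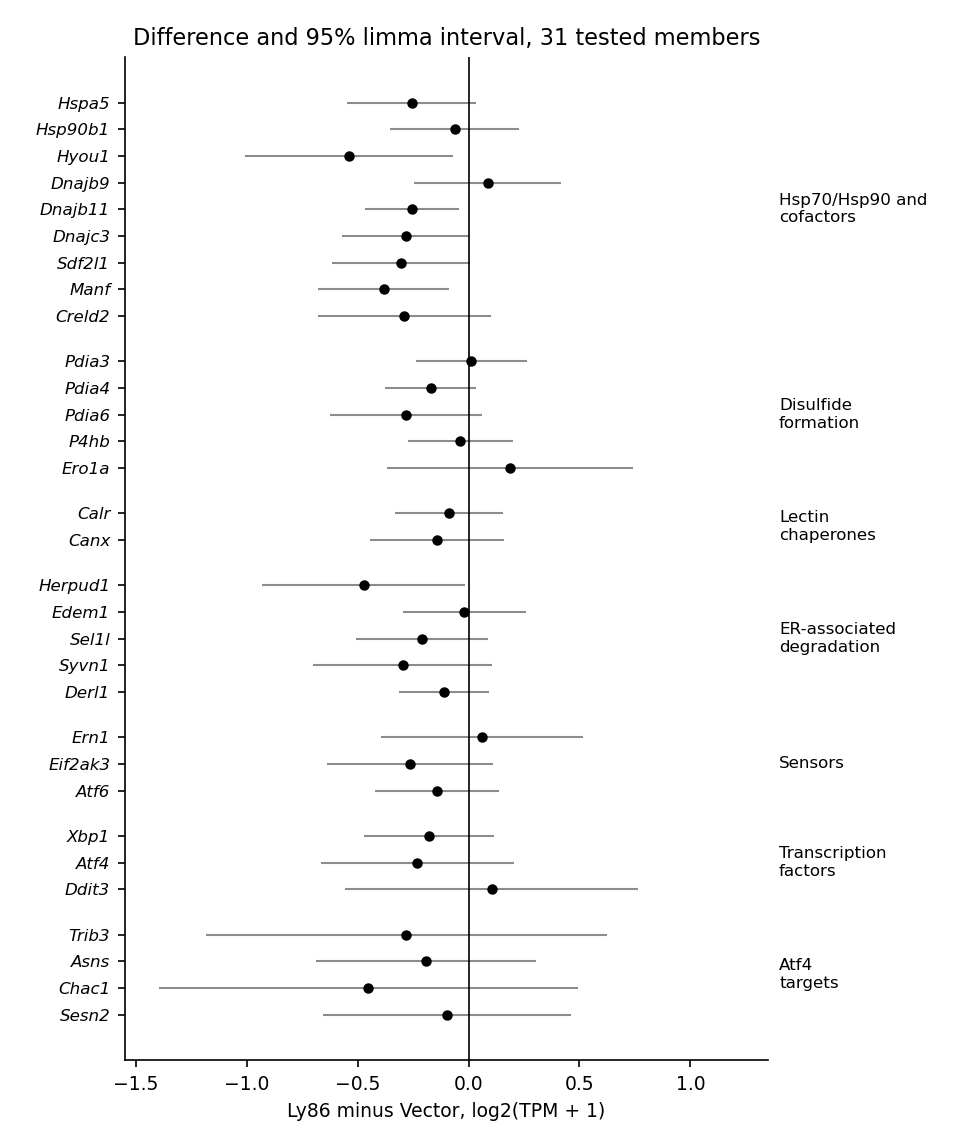
The horizontal axis gives the difference between Ly86 and Vector tumors in log2(TPM + 1); points are the 31 tested genes in their roles and lines are 95% limma intervals from 4 Ly86 and 3 Vector tumors. The intervals of Hyou1, Dnajb11, Manf and Herpud1 lie below 0, and those of Trib3 and Chac1 are the widest.

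The sensors themselves were measured at 14.2 to 39.9 TPM and 2 of 3 averaged lower. Eif2ak3 stood at 4.41, 4.44, 4.39 and 4.66 in the Ly86 tumors and at 5.02, 4.40 and 4.80 in the Vector tumors, a difference of -0.26 (SE 0.16, limma adjusted p = 0.588). Its Vector tumors 1 and 3 again lay above every Ly86 tumor. Atf6 stood at 5.29, 5.44, 5.08 and 5.30 in the Ly86 tumors and at 5.36, 5.57 and 5.32 in the Vector tumors, a difference of -0.14 (SE 0.12, limma adjusted p = 0.701). Vector tumor 2, low for most chaperones, was the highest tumor for Atf6. Ern1 differed by 0.06 (SE 0.20), with Ly86 tumor 3 lowest of all tumors at 3.52 and Vector tumor 1 next at 3.59.

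Of the transcription factors, Xbp1 and Atf4 averaged lower and Ddit3 higher. Xbp1, which drives chaperone and degradation genes, stood at 6.83, 6.44, 6.77 and 6.61 in the Ly86 tumors and at 6.92, 6.66 and 6.95 in the Vector tumors. Vector tumors 1 and 3 were the highest tumors, and the difference was -0.18 (SE 0.13, limma adjusted p = 0.640). Atf4 stood at 8.03, 7.45, 8.27 and 7.71 in the Ly86 tumors and at 8.06, 8.24 and 7.99 in the Vector tumors, a difference of -0.23 (SE 0.19, limma adjusted p = 0.689). The Ly86 tumors spread over 0.82 and spanned the whole Vector range, with tumors 2 and 4 low and tumor 3 highest of all. Ddit3, a factor tied to cell death under lasting stress, stood at 7.21, 6.99, 7.25 and 6.63 in the Ly86 tumors and at 6.45, 7.64 and 6.65 in the Vector tumors, a difference of 0.10 (SE 0.29, limma adjusted p = 0.934). Its highest and lowest tumors were both Vector tumors, and the difference was -0.13 when Vector tumor 1 was left out and 0.47 when Vector tumor 2 was.

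The Atf4 targets ranged more widely over the tumors than the chaperones did. Chac1, which breaks down glutathione, stood at 4.82, 3.38, 3.85 and 2.88 in the Ly86 tumors and at 3.90, 4.31 and 4.34 in the Vector tumors. Its highest and its lowest values were both in Ly86 tumors, a range of 1.94, and the difference of -0.45 (SE 0.41) had a limma adjusted p of 0.719. Asns, asparagine synthetase, stood at 6.60, 6.16, 7.03 and 6.25 in the Ly86 tumors and at 6.78, 6.47 and 6.86 in the Vector tumors, a difference of -0.19 (SE 0.22, limma adjusted p = 0.784). The Ly86 tumors spanned the Vector range here too. Trib3, a pseudokinase that dampens signaling downstream of Atf4, ranged over 1.53 between tumors and differed by -0.28 (SE 0.39). Sesn2, which senses leucine and restrains mTORC1, differed by -0.10 (SE 0.24). All 4 averaged lower in the Ly86 tumors, against 56.2% of all genes, and 0 of them at an unadjusted limma p under 0.05, against 4.97%.

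Set side by side, the 16 chaperones and 5 Atf4 target genes, here with Ddit3 added, each had a mean difference of -0.18. Without Ddit3, the mean difference of the 4 Atf4 targets was -0.26. The difference between chaperones and Atf4 targets was not tested. Leaving out 1 tumor at a time gave -0.12 to -0.26 for the chaperones. For the 5 Atf4 target genes it gave -0.02 (Ly86 tumor 4 or Vector tumor 2 left out) to -0.35 (Ly86 tumor 1 left out). Averaged over the 16 chaperone and folding genes, Ly86 tumors 1 to 4 stood at 7.82, 7.69, 7.77 and 7.78, and Vector tumors 1 to 3 at 8.05, 7.76 and 8.0. The Ly86 mean was 7.76 ± 0.05 (SD, n = 4), and the Vector mean was 7.94 ± 0.15 (SD, n = 3). Vector tumors 1 and 3 were highest, and only Ly86 tumor 2 lay below Vector tumor 2. Averaged over 5 Atf4 target genes (Ddit3, Trib3, Asns, Chac1 and Sesn2), the Ly86 tumors stood at 5.61, 4.89, 5.34 and 4.62 and the Vector tumors at 5.0, 5.62 and 5.28. The Ly86 mean was 5.11 ± 0.45 (SD, n = 4), and the Vector mean was 5.30 ± 0.31 (SD, n = 3). Here Vector tumor 2 was the highest, only 2 tumors lay below Vector tumor 1, and Ly86 tumor 4 was the lowest. The median range of a gene over the 7 tumors was 0.54 for the 16 chaperones and 1.20 for the 5 Atf4 targets, against 0.72 for all tested genes. No p is given for these means, since the genes were not chosen independently of earlier results.

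Differences between pieces of 1 tumor show how much of this spread lies within tumors. In Ly86 tumor 1 the chaperone mean was 7.96 in the first piece and 7.68 in the second, a gap larger than that between the group means. In Vector tumor 1 it was 7.99 and 8.11. In Vector tumor 2 the chaperone mean was 7.75 and 7.77, while its Atf4 target mean was 5.27 in the first piece and 5.96 in the second. Chac1 differed most between the pieces of both divided Vector tumors, being higher in the second piece by 0.70 in tumor 1 and by 1.09 in tumor 2, and Creld2 differed most in Ly86 tumor 1, being -0.60 in the second piece relative to the first.

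**Figure D3:**
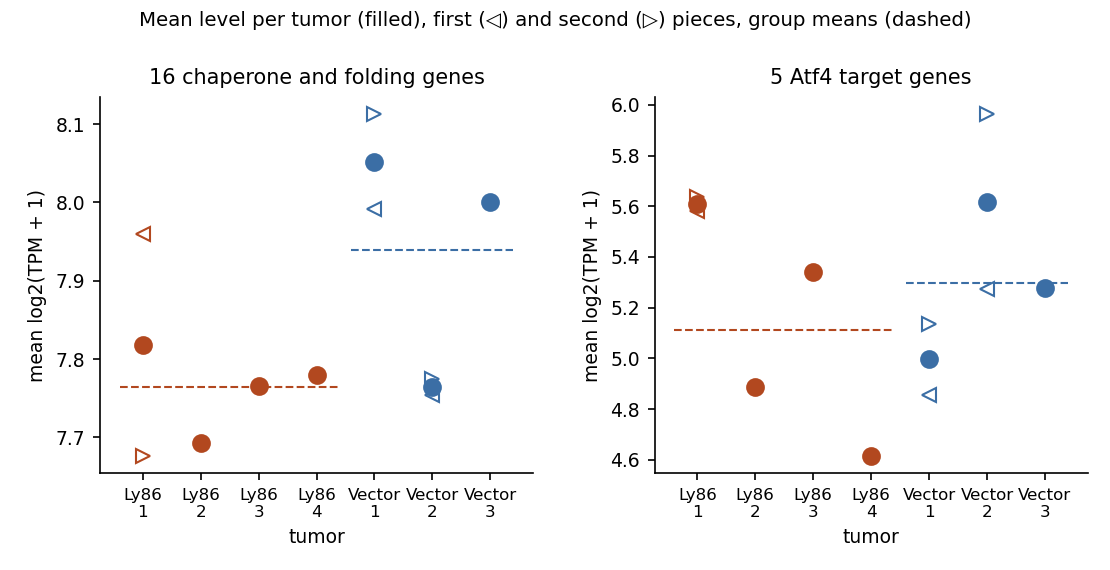
The vertical axis of each panel is a mean log2(TPM + 1), over 16 chaperone and folding genes on the left and over 5 Atf4 target genes on the right; filled points are tumors, open triangles the first and second pieces of divided tumors, and dashed lines group means (orange Ly86, blue Vector). Vector tumor 2 lies with the Ly86 tumors for chaperones at 7.76 and is the highest tumor for Atf4 targets at 5.62.

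Values of other cell types moved with these groups and are given here beside the chaperone means. Macrophage markers, 12 genes, averaged 6.68 ± 0.19 in the Ly86 tumors (SD, n = 4) and 5.52 ± 1.06 in the Vector tumors (SD, n = 3). Their summed level was 1873 to 3737 TPM in the Ly86 libraries and 375 to 5246 TPM in the Vector libraries, and none was at 0 in any library. The pieces of Vector tumor 2 stood at opposite ends of that range, 5246 TPM in the first and 375 TPM in the second. Their chaperone means were 7.75 and 7.77. The pieces of Ly86 tumor 1 held 1873 and 3737 TPM, with chaperone means of 7.96 and 7.68. Those of Vector tumor 1 held 378 and 615 TPM, with chaperone means of 7.99 and 8.11. With the first piece of Vector tumor 2 dropped, the mean difference of the chaperones was -0.18. The 9 fibroblast markers summed to 963 to 2833 TPM in the Ly86 libraries and to 105 to 5437 TPM in the Vector libraries, and the 10 T cell markers to 52.8 to 112 TPM in the Ly86 libraries and to 10.6 to 174 TPM in the Vector libraries. None of either was at 0.

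The 11 plasma and B cell markers summed to 48.4 to 180 TPM in the Ly86 libraries and to 34.6 to 101 TPM in the Vector libraries. Of these markers 6 were at 0 in at least 1 library, and they averaged higher in the Ly86 tumors, by 0.56. Keratinocyte markers summed to 0.31 to 2345 TPM in the Ly86 libraries and to 0 to 640 TPM in the Vector libraries, and muscle markers to 2.04 to 1038 TPM in the Ly86 libraries and to 13.3 to 298 TPM in the Vector libraries. All 6 keratinocyte markers and 2 of the 6 muscle markers were at 0 in at least 1 library. The 6 endothelial markers differed by a median of 0.02.

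The 10 proliferation genes ran the same way as the chaperones between the groups. They averaged 6.94 ± 0.14 in the Ly86 tumors (SD, n = 4) and 7.28 ± 0.21 in the Vector tumors (SD, n = 3), with none at 0 in any library, and summed to 1281 to 1656 TPM in the Ly86 libraries and to 1319 to 2073 TPM in the Vector libraries. Vector tumors 1 and 3, highest for chaperones, were highest for these genes at 7.43 and 7.37, and Ly86 tumor 2, lowest for chaperones, was lowest at 6.75. The part of proliferation, of macrophages, of fibroblasts and of the other cell types in the differences of the 32 genes was not tested.

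**Figure D4:**
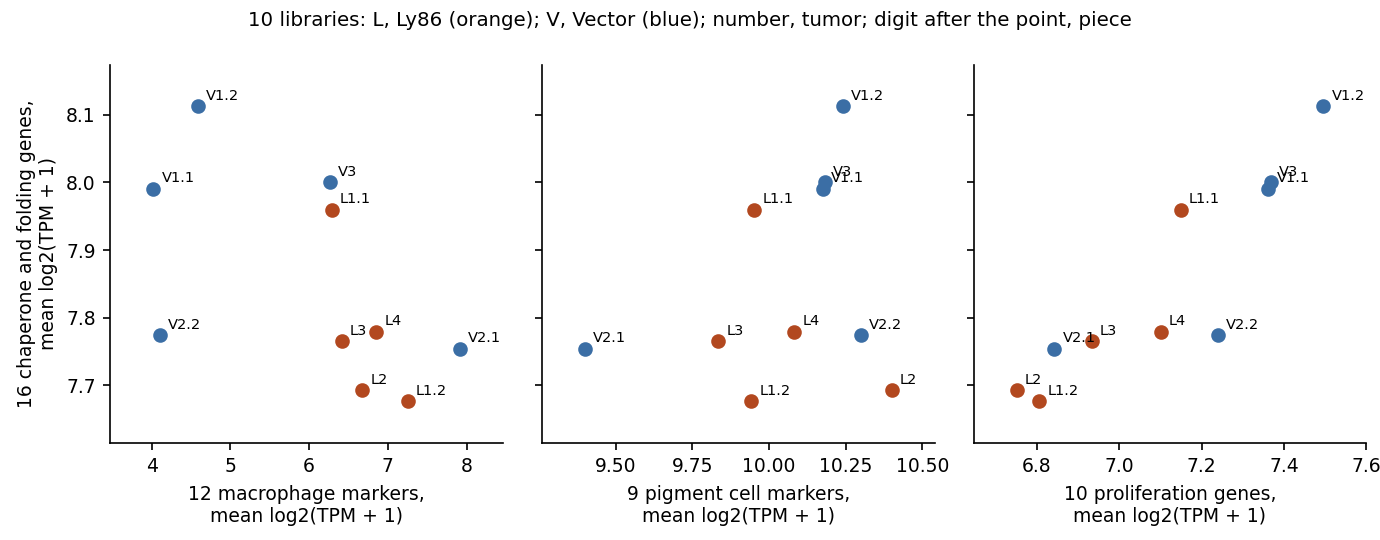
Each point is 1 of 10 libraries, named by group (L, Ly86; V, Vector), tumor and piece; the vertical axis is the mean log2(TPM + 1) of 16 chaperone and folding genes and the horizontal axes are the means of 12 macrophage markers, 9 pigment cell markers and 10 proliferation genes. The pieces of Vector tumor 2 lie far apart on the macrophage axis (7.91 and 4.10) at nearly the same chaperone mean (7.75 and 7.77). Those of Ly86 tumor 1 lie at 6.29 and 7.25 on that axis, with chaperone means of 7.96 and 7.68. Those of Vector tumor 1 lie at 4.02 and 4.59, with chaperone means of 7.99 and 8.11. The 3 libraries of Vector tumors 1 and 3 lie highest on the chaperone and the proliferation axes.

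In lists chosen with earlier results of these data known, the wider pathway also averaged lower in most genes, but so did 56.2% of all genes tested. At an unadjusted limma p under 0.05, 4.97% of all genes were lower and 5.78% higher. Every Ly86 tumor lay below every Vector tumor in 5.75% of all genes and above in 4.71%. These shares also stand beside the counts of the next paragraphs. Of 29 other folding and glycan-trimming genes of the endoplasmic reticulum, 19 averaged lower and 10 higher in the Ly86 tumors, with a median of -0.08, and 3 were lower and 0 higher at an unadjusted limma p under 0.05. Txndc5, a disulfide isomerase, averaged 6.66 ± 0.17 in the Ly86 tumors and 7.02 ± 0.13 in the Vector tumors (SD, n = 4 and 3). Mogs, the glucosidase that starts glycan trimming, averaged 6.32 ± 0.21 in the Ly86 tumors and 6.72 ± 0.21 in the Vector tumors (SD, n = 4 and 3). Of 20 other degradation genes, 16 averaged lower, with a median of -0.06 and 2 at an unadjusted p under 0.05, Selenos (-0.27, SE 0.098) and Ubxn8 (-0.27, SE 0.10). Of 17 genes of the translocon and signal peptidase, 12 averaged lower, with a median of -0.16 and 3 at an unadjusted p under 0.05, among them the pore subunit Sec61a1 (-0.36, SE 0.13) and Ssr3 (-0.23, SE 0.083). Transport between the endoplasmic reticulum and the Golgi had 18 of 23 genes lower, with a median of -0.10 and 0 in either direction at that p. The 2 smallest p there were those of the coat proteins Sec23b (-0.25, SE 0.12) and Copb2 (-0.17, SE 0.082).

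Among 8 further sensors, factors and membrane proteases, 5 averaged lower and 3 higher, 1 lower and 2 higher at an unadjusted limma p under 0.05. Their median was -0.11 and their mean 0.03, which differ in sign. Mbtps1, the protease that makes the first cut in Atf6, differed by -0.32 (SE 0.12, limma adjusted p = 0.449). Its values were 5.88, 5.74, 5.41 and 5.70 in the Ly86 tumors and 6.01, 5.93 and 6.06 in the Vector tumors, without overlap. Crebzf, a leucine zipper protein, was higher without overlap, by 0.28 (SE 0.092, limma adjusted p = 0.437).

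Of 26 other tested Atf4 targets, 20 averaged lower and 6 higher, with a median of -0.20, and 5 were lower and 0 higher at an unadjusted p under 0.05. Slc7a1, which imports cationic amino acids, stood at 5.58, 5.35, 5.35 and 5.36 in the Ly86 tumors and at 5.98, 5.88 and 6.07 in the Vector tumors. Its difference of -0.56 (SE 0.10) had a limma adjusted p of 0.409, and the groups did not overlap. Slc1a5, which imports glutamine, differed by -0.45 (SE 0.14, limma adjusted p = 0.437), also without overlap. The 11 tRNA synthetases in the table, which charge tRNAs with amino acids and include Atf4 targets, averaged lower in 11 of 11, with a median of -0.23 and 3 at an unadjusted p under 0.05. Aars differed by -0.30 (SE 0.093) and Eprs by -0.29 (SE 0.099), both with an adjusted p of 0.437 in limma. In both genes every Ly86 tumor lay below every Vector tumor.

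Chaperones outside the endoplasmic reticulum were set beside the others. Of 15 cytosolic chaperones, 12 averaged lower, with a median of -0.18 and 1 at an unadjusted p under 0.05 (Stip1, -0.30, SE 0.12), and Cct2 differed by -0.22 (SE 0.11). Of 7 mitochondrial chaperones and proteases, 6 averaged lower, with a median of -0.17 and 0 at that p, the smallest being those of Lonp1 (-0.17, SE 0.091) and Clpp (-0.21, SE 0.14). Their medians were near the -0.19 of the 31 genes.

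Sorted by promoter instead of role, 8 tested members had windows with the stress element printed above (Hspa5, Hsp90b1, Dnajc3, Creld2, Pdia6, Calr, Canx and Syvn1). All 8 averaged lower, with a median of -0.27 and 0 at an unadjusted limma p under 0.05. Of all 31 tested members 26 averaged lower, with a median of -0.19. The 4 members lower at that p (Manf, Dnajb11, Hyou1 and Herpud1) were all outside these 8, and Manf and Hyou1 had no window. Members with and without the element were not compared by a test. The 12 other tested genes with the element averaged lower in 10 of 12, against 56.2% of all genes, with a median of -0.16. Lower at an unadjusted limma p under 0.05 were 2 of the 12, against 4.97% of all genes. These were Calr4 (-0.60, SE 0.24) and Hnrnpa3 (-0.27, SE 0.12), while the oxidase gene Ero1b was higher by 0.28 (SE 0.15). The 12 include Xlr3a (-0.16), Xlr3b (-0.0066) and Xlr3c (-0.17), which by symbol are of the same family. The 10652 tested genes with a window that lacks the element had a median of -0.04. All 10 tested genes with ERSE-II averaged lower, with a median of -0.10. Of these 10, 2 had an unadjusted limma p under 0.05, the members Herpud1 and Dnajb11, against 4.97% of all genes lower at that p. The 310 tested genes with TGATGNAA had a median of 0.00, and 155 of them averaged lower. At an unadjusted limma p under 0.05, 28 of the 310 were higher (9.03%, against 5.78% of all genes) and 18 lower (5.81%, against 4.97%).

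**Figure D5:**
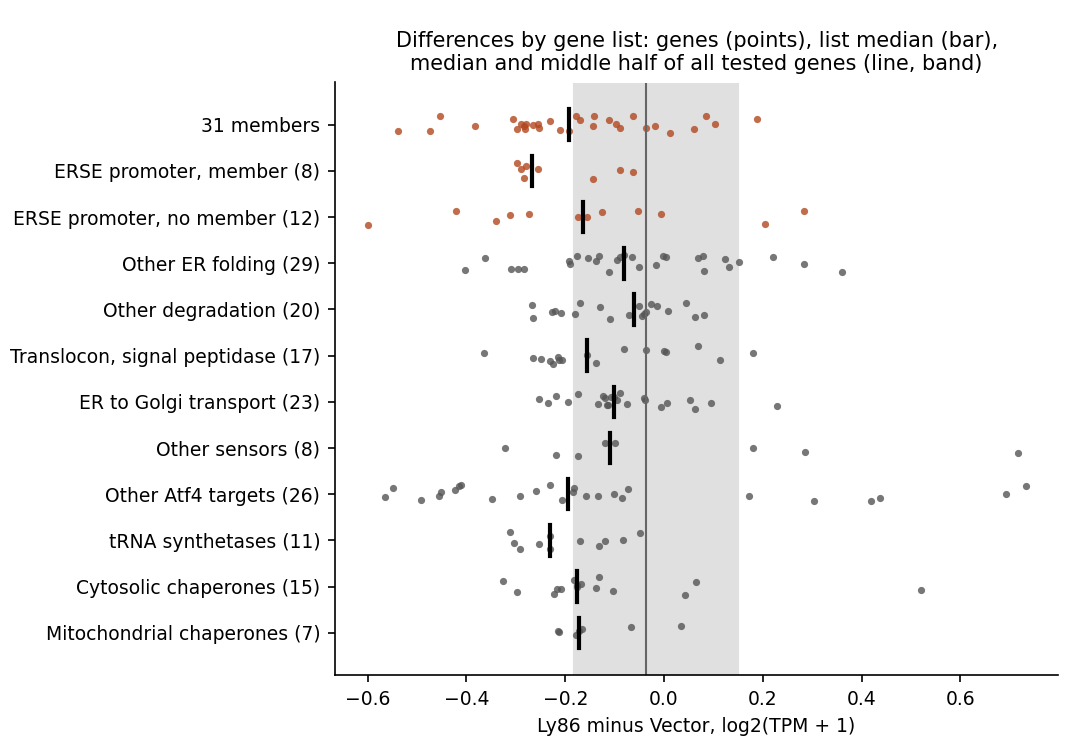
Points are genes, placed by their difference between Ly86 and Vector tumors in log2(TPM + 1); bars are list medians, and the vertical line and gray band give the median and the interquartile range of the 14556 tested genes. The median of the 31 members is -0.19 and that of the 8 members with the stress element -0.27, and every list median lies left of the line.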

How the data were processed

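Polyadenylated RNA of 10 libraries from 7 tumors was sequenced. Per the submitters' processing notes, STAR 2.7.10b, RSEM 1.3.3 and the mouse build mm39 were used, and their order and settings are not given in the sources used here. The deposited values, which the authors gave with no stated unit, are log2 values: log2(TPM + 1) was read from them, since undoing that transform gave multiples of 0.01 for 99.9% of values, and sums of 994679 to 996446 per library. The planned test had assumed TPM and needed no change. Between 19304 and 21882 of the 27919 symbols had a value above 0 in a library.

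The log2 values of pieces were averaged per tumor. Genes averaging 1 TPM or more over the tumors, 14556 in all, were tested with limma 3.58.1 in R 4.3.3 (lmFit, eBayes with trend), with Benjamini-Hochberg adjustment over all of them and a threshold of 0.05. Whether the tumors came from separate mice is not in the labels, and the p-values therefore reflect only the spread among these tumors, which may be technical. The scale understates changes of low genes. The fit was tested on simulated data.

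The 32 genes and every list were chosen with earlier results of these data known. Values per tumor are given for Hspa5, Atf4, Ddit3, Xbp1 and the 2 genes with the smallest unadjusted p in each role; Hyou1, Ero1a and the members of small counts were named after their values were seen, as were Calr4, Hnrnpa3 and Ero1b among genes with a promoter element. Of each other pathway list the 2 genes with the smallest p are named. In these lists 9 tRNA synthetases were matched through RefSeq synonyms, Ern2 and Nars1 were not matched, and 1 further Atf4 target was under the minimum. Promoters are RefSeq's (GRCm38.p6), a build other than that of the values. Alternatives were other pseudocounts, filters, scalings, pieces, weights and blocks, and leaving out each tumor. Python 3.11.15 and matplotlib 3.10.9 drew the figures.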

Additional observations from a re-analysis of the deposited data

Results flagged for a closer look

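In each group of 4 Ly86 tumors, the gap between the highest or lowest tumor and its nearest neighbor was divided by the range of the 4, and a share above Dixon's 95% critical value for 4 values marked the tumor as apart from the others. Of 50 genes and 10 mean scores examined, 6 were marked, and chance marks about 1 in 20. Ero1a had a share of 0.899, with Ly86 tumor 2 low at 7.63 beside 8.03 to 8.08 in the other Ly86 tumors. The mean of the 5 disulfide-forming enzymes had a share of 0.870, again with Ly86 tumor 2 low, at 8.36 beside 8.61 to 8.65. Derl3 had a share of 0.875, with Ly86 tumor 3 high at 0.78 log2(TPM + 1), a gene near 0 in all tumors. Eif2ak3 had a share of 0.835, with Ly86 tumor 4 high at 4.66 beside 4.39 to 4.44. The translocon gene Ssr3 had a share of 0.854, with Ly86 tumor 2 low at 7.79. The amino acid transporter Slc7a1 had a share of 0.944, with Ly86 tumor 1 high at 5.58 beside 5.35 to 5.36, and still below the lowest Vector tumor at 5.88.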

How the results depend on the processing

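The means kept their direction in all 22 alternative settings, at -0.12 to -0.26 for chaperones and -0.02 to -0.35 for Atf4 targets with Ddit3. Not all of these are separate checks. The other filters and the fit without trend cannot move a difference, and the replicate block gave the same means as leaving out Ly86 tumor 4. Of the 31 tested genes, 20 kept theirs across all these settings. Members past the adjusted threshold numbered 0 in 21 of them and 8 with array weights (1832 of all 14556 genes), whose estimation stopped before full convergence. Members lower at an unadjusted p under 0.05, 4 in the reported fit, numbered 1 when centred on pigment cell markers, 2 with first pieces only, 11 with second pieces only, 7 with the first piece of Vector tumor 2 dropped, 2 without trend, 16 with array weights and 0 with a replicate block. Over all genes the count, 724 in the reported fit, was 159, 192, 1741, 1379, 617, 3085 and 290 in the same order. Leaving out each tumor gave 0 (without Vector tumor 1 or 3) to 12 (without Vector tumor 2), against 250 to 1343 over all genes, and 0 to 1 for members higher. The cause of these shifts was not tested.

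Some directions turned. First pieces only gave 0.013 for Canx, 0.015 for P4hb and 0.030 for Sesn2. Array weights gave -0.034 for Dnajb9, 0.037 for Edem1, -0.15 for Ern1, -0.024 for Pdia3 and 0.075 for Sesn2. Edem1 was 0.014 under median-of-ratios scaling, 0.037 under quantile normalization, 0.0022 with the first piece of Vector tumor 2 dropped and 0.0041 with the tumor as a random block, and Pdia3 was -0.0079 under quantile normalization. Leaving out each tumor gave ranges that crossed 0 for Ddit3 (-0.13 to 0.47), Dnajb9 (-0.061 to 0.17), Edem1 (-0.078 to 0.073), Ern1 (-0.076 to 0.20), Ero1a (-0.11 to 0.42), Hsp90b1 (-0.13 to 0.0079), P4hb (-0.073 to 0.031), Pdia3 (-0.049 to 0.079), Sesn2 (-0.25 to 0.11) and Trib3 (-0.55 to 0.0037).

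Tumors share only a number between groups. Deviations of same-numbered tumors correlated at -0.21, -0.04 and -0.34. Whether the numbers pair tumors is not in the labels, and correlations over so few tumors cannot settle it. With the tumor number as a replicate block, which drops Ly86 tumor 4, Pdia3 was -0.049 and Sesn2 0.0025, and the Ly86 tumors did not correlate best with their own number. Median-of-ratios scaling moved the median of all genes to -0.0067. The number of tumors limits every call, and the precision set by read depth is unknown.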
